A study of Sus scrofa with 24 samples.

Results

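The genes described here build and run motile cilia. They were taken from a list of 38 symbols covering regulators of ciliated cell formation, dynein arm subunits and their assembly factors, radial spokes, the central pair apparatus and proteins of the microtubule doublets. Each symbol was looked up in the gene symbol column of the deposited table. The lookup found 37 of them among 18753 genes, and PIFO was not matched. The symbols were listed by function and not by a measured value.

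A motile cilium beats because dynein arms, fixed in rows on the outer microtubule doublets, slide one doublet against the next. Radial spokes and the central pair pass signals to the arms, and the nexin-dynein regulatory complex turns sliding into bending. Cells with many motile cilia amplify their centrioles under the regulators GMNC and MCIDAS and then switch on the axonemal genes through FOXJ1 and RFX factors. In the female tract such cells are best known from the oviduct, where their beat helps to move the egg, and ciliated cells also line the rete ovarii. Most other ovarian cells carry a single primary cilium, which needs intraflagellar transport but not the motility machinery.

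Ovaries came from healthy female pigs of the Chenghua breed, kept under like housing and feeding. The 4 stages were postnatal day 3 (Day 3), postnatal day 120 at the entry into puberty (Puberty), 1 year of age in sexual maturity (Year 1) and day 105 of pregnancy (Pregnancy), with 3 sows per stage. The labels name no genetic alteration and no treatment. RNA was extracted from frozen pieces of ovary and enriched for polyadenylated mRNA, so each library holds whatever cell types its piece contained, and fewer cells of a type cannot be told apart from less RNA per cell.

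The 12 mRNA libraries held 14615493 to 16187916 counts each. Levels are given as TPM, a share of all transcripts in the library scaled for transcript length, and tests were run on counts with edgeR's quasi-likelihood test over all 4 stages. A gene was called where its p-value, adjusted over 15699 genes by the Benjamini-Hochberg method, was under 0.05. Markers of ovarian cells were present at every stage: the summed level of 11 germ cell genes was 1422 to 1979 TPM at Day 3 and 37.8 to 214.7 TPM later, and that of 8 granulosa cell genes was 424 to 14041 TPM over the libraries. In the 3 libraries Year 1 replicates 2 and 3 and Pregnancy replicate 3, 6 luteal and steroidogenic genes summed to 18547 TPM or more, against 1433 TPM or less in the other libraries. These 3 libraries also had the lowest scaling factors, at 0.841 or under. Results that involve Year 1 or Pregnancy are therefore given with and without the odd library of each stage.

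The motile cilia genes were highest in the Day 3 ovary. The mean level was highest at Day 3 for 35 of 37 genes. The exceptions were CFAP53, highest at Puberty, and TPPP3, highest in Pregnancy. The lowest mean level was at Year 1 for 33 genes and in Pregnancy for MCIDAS, DNAAF1, CFAP43 and TEKT1. The shares of all genes with these highest and lowest stages were not counted. DNAAF1 was highest at Day 3 by TPM, but its fitted log2 fold change to Puberty was 0.27 ± 0.51 (SE). TPPP3, a tubulin-binding protein that marks ciliated cells but is also made elsewhere, took a large part of the sum, so the other 36 genes were summed without it. Their summed level was 192, 282 and 162 TPM in the 3 Day 3 libraries and 33.6, 34.0 and 31.8 TPM at Puberty. It was 21.8, 5.77 and 8.44 TPM at Year 1 and 25.4, 26.4 and 18.3 TPM in Pregnancy. Every Day 3 library lay above every later library in this sum. In TPM differences the later stages lay much closer to one another than to Day 3. By ratio this did not hold for every library. Year 1 replicate 2 lay further below Puberty replicate 2 (5.77 against 34.0 TPM) than Puberty replicate 2 below Day 3 replicate 3 (162 TPM).

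**Figure D1:**
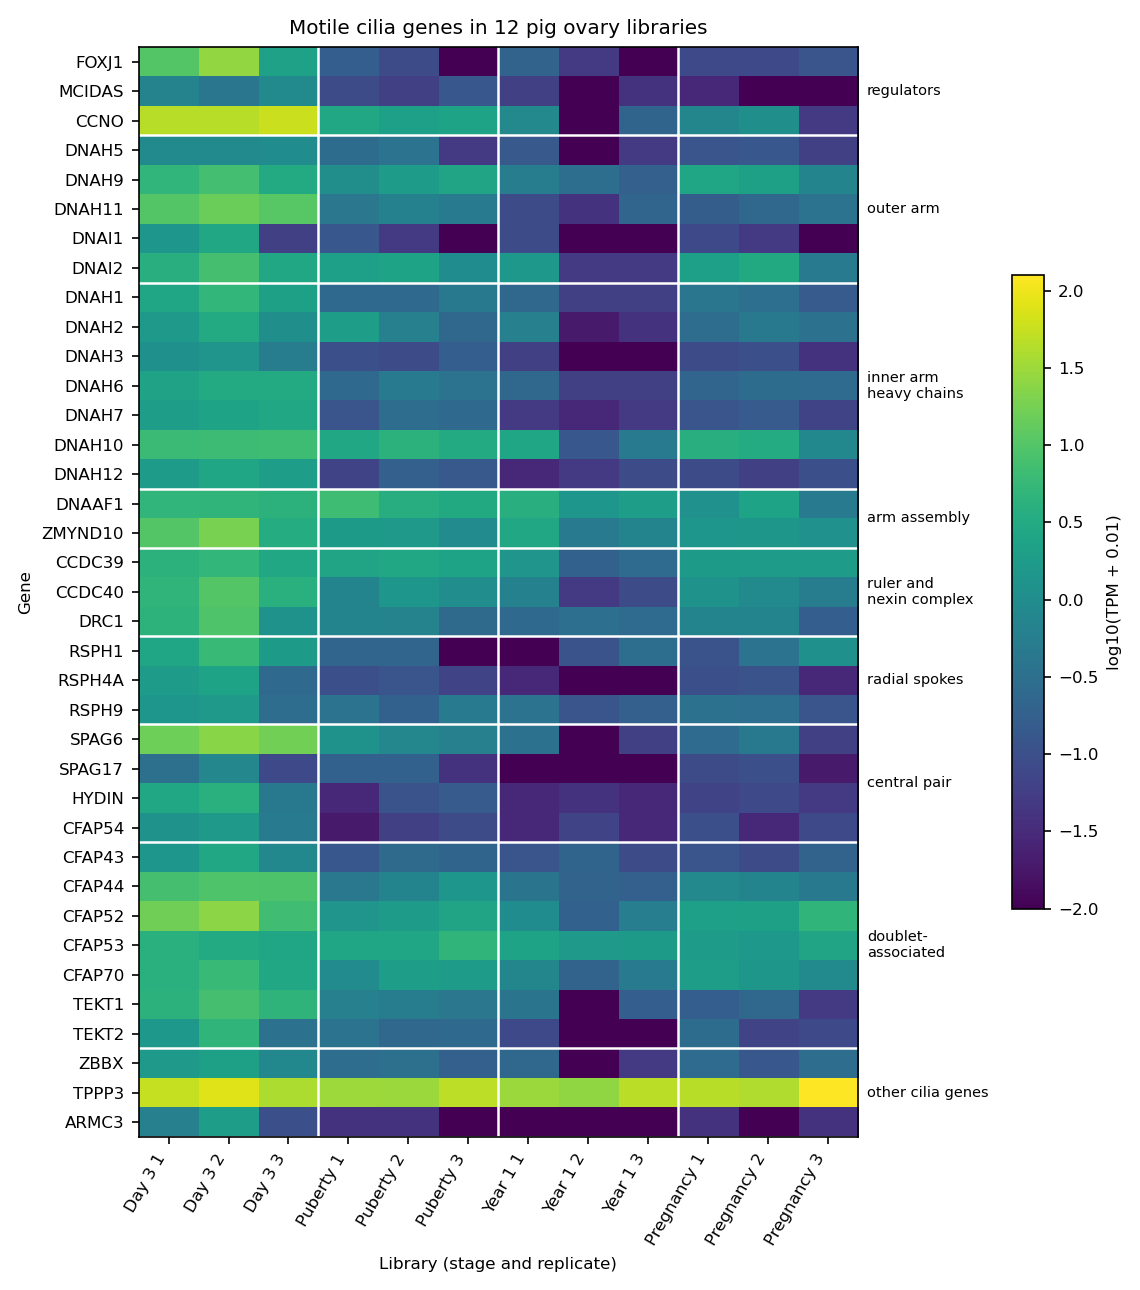
Level of each of the 37 motile cilia genes (rows, grouped by role) in each of the 12 libraries (columns, 3 per stage), as the base-10 logarithm of TPM plus 0.01; white lines separate stages and roles. The 3 Day 3 columns are the brightest for most genes, Day 3 replicate 3 is darker than replicate 2 for most of them, and TPPP3 stays bright in all 12 libraries.

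At least 1 stage differed for 26 of the 33 genes tested, where 46% of all genes tested were called. The other 4 genes, DNAI1, RSPH9, TEKT2 and ARMC3, had too few reads for the test. Of the 33 that were tested, 8 (FOXJ1, MCIDAS, RSPH1, RSPH4A, SPAG17, CFAP54, TEKT1 and ZBBX) had enough reads only because of Day 3 and would not have been tested on the 9 later libraries. Such a gene can hardly do other than differ, so its call is given apart from the rest. Over all stages, all 8 were called, and 18 of the other 25.

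From Day 3 to Puberty, 22 of the 33 genes tested fell and none rose. Of all genes tested, 17.2% fell, 11.5% rose and 28.7% changed in either direction. Of the 8 genes tested only through their Day 3 reads 7 fell, and of the other 25 genes 15 fell. The median log2 fold change was -2.71 over the 33 genes and 0.04 over all genes tested. No motile cilia gene rose in any alternative fit run, DESeq2 and limma among them. At an unadjusted p under 0.05 there were 24 motile cilia genes, all lower at Puberty. Of the 15699 genes tested, 6509 had such a p, 3539 of them lower at Puberty. All 3 Day 3 libraries had a higher TPM than all 3 Puberty libraries for 28 of 37 genes, a pattern found in 42.3% of all genes detected. For 27 of 37 genes all Day 3 libraries lay above all 9 later ones, against 34% of all genes.

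The 3 regulators all fell, but FOXJ1 and MCIDAS were tested only through their Day 3 reads, and CCNO alone was not. FOXJ1, the forkhead factor that switches on the motile axoneme genes, lies at chr12:5306121-5312117 on the plus strand (Sscrofa11.1, coordinates from the deposited table). FOXJ1 stood at 9.97, 26.9 and 2.20 TPM in the Day 3 libraries, from 234, 599 and 48 reads. It stood at 0.16, 0.08 and 0 TPM at Puberty, and in none of the 9 later libraries did it exceed 5 reads. Even the lowest Day 3 library was thus well above every later one. Its log2 fold change from Day 3 to Puberty was -6.90 ± 1.19 (SE; edgeR adjusted p = 0.00264), and that size rests on a Puberty group of 6 reads in all.

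MCIDAS, also called multicilin, and CCNO, a cyclin relative needed to amplify centrioles, are neighbours. They lie on the minus strand at chr16:34377130-34386095 and chr16:34387179-34390611, with 1083 bases between them. CCNO was the second most abundant of the 37 genes at Day 3, at 45.6, 46.4 and 59.2 TPM, and had 2.90, 2.08 and 2.40 TPM at Puberty. It was at 0.84, 0 and 0.20 TPM at Year 1 and at 0.75, 1.09 and 0.04 TPM in Pregnancy. The 3 Day 3 libraries lay close together for CCNO and far above all others. Its log2 fold change to Puberty was -4.01 ± 0.85 (SE; edgeR adjusted p = 0.00696).

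MCIDAS was far less abundant than its neighbour, at 0.67, 0.40 and 0.91 TPM at Day 3 and 0.08, 0.05 and 0.12 TPM at Puberty. In Pregnancy it was detected in 1 library, at 0.02 TPM. Its groups did not overlap between Day 3 and any later stage. The log2 fold change to Puberty was -2.59 ± 0.69 (SE; edgeR adjusted p = 0.018), and the call was lost in 3 of 12 fits that each left out 1 library.

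**Figure D2:**
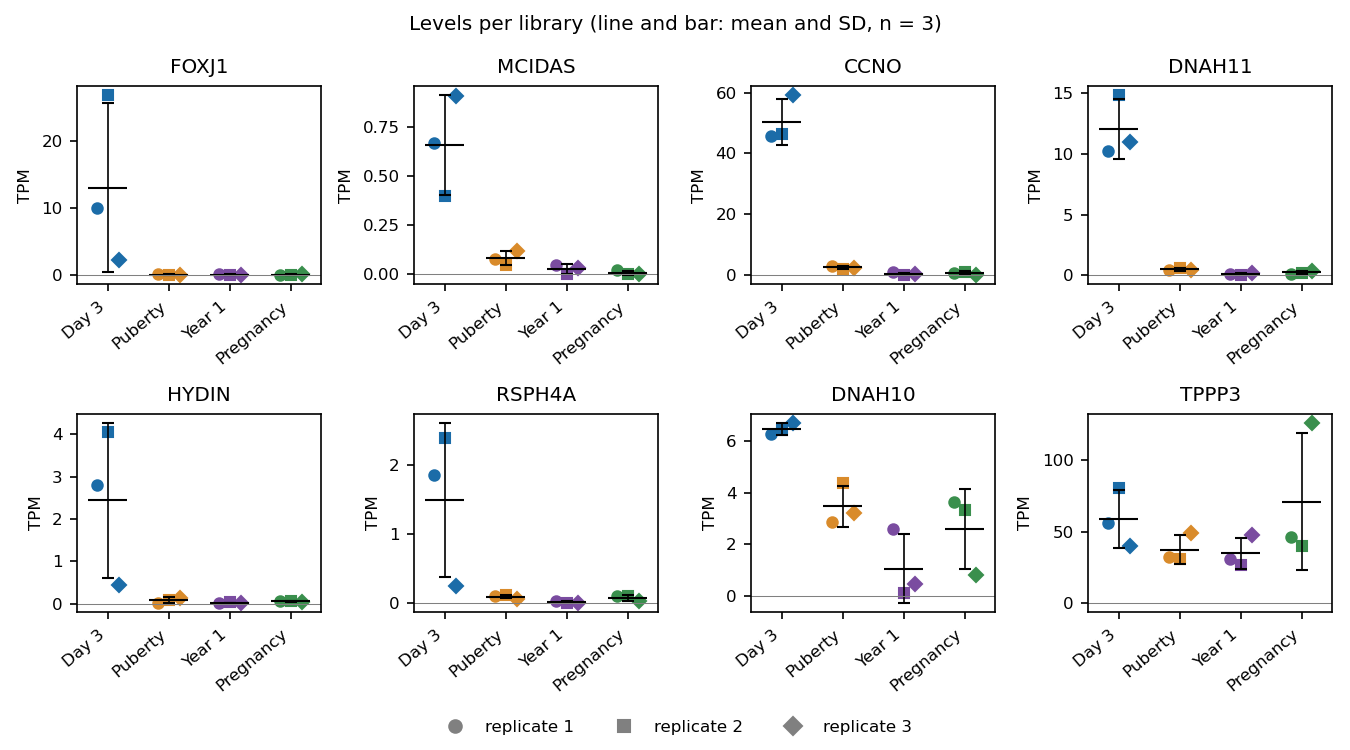
Level in TPM (vertical axes start near 0 and differ between panels) of 8 motile cilia genes by stage; symbols are the 3 libraries, lines the mean and bars 1 SD. FOXJ1, HYDIN and RSPH4A spread widely among the Day 3 libraries, CCNO and DNAH11 were high in all 3, DNAH10 was lower in every library after Day 3 but still reached 4.38 TPM at Puberty, and TPPP3 overlapped between the stages.

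The outer dynein arm drives most of the beat. Of its 4 genes tested only DNAH11 fell from Day 3 to Puberty. DNAH11, a heavy chain at chr9:90420044-90768327 on the plus strand, had 10.3, 14.9 and 11.03 TPM at Day 3 and 0.41, 0.63 and 0.47 TPM at Puberty. At Year 1 it had 0.08, 0.03 and 0.21 TPM, and in Pregnancy 0.15, 0.23 and 0.36 TPM. The Day 3 libraries were tightly grouped and lay above all others by more than an order of magnitude. The log2 fold change to Puberty was -4.30 ± 0.43 (SE; edgeR adjusted p = 0.00027).

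The other heavy chains of the outer arm kept part of their level. DNAH9 stood at 4.92, 7.47 and 3.20 TPM at Day 3 and at 1.05, 1.81 and 2.45 TPM at Puberty. DNAH5 was low throughout, at 0.92, 0.86 and 0.96 TPM at Day 3 and 0.27, 0.35 and 0.04 TPM at Puberty. Neither difference passed the test, although neither gene's Day 3 libraries overlapped its Puberty libraries. The intermediate chains, which anchor the arm, differed from each other. DNAI2 had 3.87, 7.75 and 2.75 TPM at Day 3 and 2.03, 2.35 and 0.99 TPM at Puberty, a difference that did not pass the test. DNAI1 was not tested: it had 1.43, 2.74 and 0.05 TPM at Day 3, from 33, 60 and 1 reads, and at most 0.12 TPM later. Its Day 3 replicate 3 was thus within the range of the later libraries.

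Of the 7 inner arm heavy chains, 5 fell: DNAH1, DNAH3, DNAH6, DNAH7 and DNAH12. These single-headed and double-headed motors shape the bend of the cilium. DNAH7 had 1.90, 2.41 and 2.73 TPM at Day 3 and 0.11, 0.28 and 0.24 TPM at Puberty, with a log2 fold change of -3.18 ± 0.42 (SE; edgeR adjusted p = 0.000771). The other 4 stood between 0.52 and 5.20 TPM in every Day 3 library and at 0.50 TPM or less at Puberty. The call of DNAH3 was lost in 5 of the 12 fits that left out a library. DNAH10 was the exception in level. It had 6.27, 6.43 and 6.71 TPM at Day 3, the smallest ratio of highest to lowest Day 3 library among the 37 genes (1.07), and 2.86, 4.38 and 3.20 TPM at Puberty. Its Day 3 and Puberty libraries did not overlap, yet the log2 fold change was -0.56 ± 0.76 (SE; edgeR adjusted p = 0.612). DNAH2 overlapped between the stages, with 1.61, 3.25 and 1.09 TPM at Day 3 and 2.00, 0.60 and 0.23 TPM at Puberty.

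Dynein arms are put together in the cytoplasm with the help of assembly factors. ZMYND10 fell, from 9.89, 18.6 and 3.46 TPM at Day 3 to 1.69, 1.65 and 0.93 TPM at Puberty, with a log2 fold change of -2.54 ± 0.69 (SE; edgeR adjusted p = 0.0195). That call was lost in 4 fits, each without Day 3 replicate 2 or 1 of the Puberty libraries. DNAAF1 was not called. It stood at 4.99, 4.81 and 4.27 TPM at Day 3 and at 6.60, 3.64 and 3.06 TPM at Puberty, and its groups overlapped.

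CCDC39 and CCDC40 form the ruler that sets the spacing of arms and spokes along the doublet, and DRC1 is a core part of the nexin-dynein regulatory complex. The ruler partners differed in their values. CCDC40 had 4.86, 9.96 and 3.97 TPM at Day 3 and 0.71, 1.42 and 1.03 TPM at Puberty, with a log2 fold change of -2.24 ± 0.71 (SE; edgeR adjusted p = 0.0368), a call lost in 7 of 12 fits that left out a library. CCDC39 had 4.26, 5.23 and 2.77 TPM at Day 3 and 2.47, 2.91 and 2.36 TPM at Puberty, with a log2 fold change of -0.47 ± 0.54 (SE; edgeR adjusted p = 0.536). Whether the 2 changes differ was not tested. DRC1 fell, from 4.54, 9.36 and 1.25 TPM to 0.70, 0.67 and 0.25 TPM, a call lost in 3 of the 12 fits.

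The radial spoke head genes RSPH1 and RSPH4A both fell, and both were tested only through their Day 3 reads. RSPH4A had 1.85, 2.39 and 0.24 TPM at Day 3 and 0.09, 0.11 and 0.06 TPM at Puberty, with a log2 fold change of -3.69 ± 0.87 (SE; edgeR adjusted p = 0.0107). RSPH1 had 2.59, 5.94 and 1.68 TPM at Day 3 and 0.21, 0.21 and 0 TPM at Puberty, with a log2 fold change of -4.11 ± 1.10 (SE; edgeR adjusted p = 0.0188). The RSPH1 call was lost in 4 fits that left out a library, and its Puberty group held 4 reads. RSPH9, which was not tested, stood at 1.42, 1.56 and 0.28 TPM at Day 3 and between 0.18 and 0.46 TPM at Puberty, so its Day 3 replicate 3 lay within the Puberty range.

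In the central pair, 3 of 4 genes fell; of these, CFAP54 was tested only through its Day 3 reads, as was SPAG17. SPAG6, an armadillo repeat protein, had 15.9, 23.8 and 16.6 TPM at Day 3 and 1.22, 0.79 and 0.61 TPM at Puberty. At Year 1 it had 0.33, 0 and 0.05 TPM, and in Pregnancy 0.26, 0.44 and 0.05 TPM. All Day 3 libraries were far above all others, with a log2 fold change to Puberty of -4.06 ± 0.74 (SE; edgeR adjusted p = 0.00333). HYDIN, a very large protein of the central pair, fell from 2.80, 4.07 and 0.45 TPM to 0.02, 0.10 and 0.14 TPM, and CFAP54 from 1.21, 1.67 and 0.46 TPM to 0.01, 0.05 and 0.08 TPM. Both kept their call in every fit that left out a library. SPAG17 was low from the start, at 0.32, 0.77 and 0.07 TPM at Day 3, overlapped with Puberty and did not pass the test.

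Of the 6 doublet-associated genes tested, CFAP43, CFAP44, CFAP52 and TEKT1 fell. CFAP44 had 7.81, 9.21 and 8.93 TPM at Day 3 and 0.43, 0.71 and 1.43 TPM at Puberty, with a log2 fold change of -2.89 ± 0.40 (SE; edgeR adjusted p = 0.00104). CFAP52, a protein of the doublet lumen, had 16.4, 24.4 and 6.95 TPM at Day 3 and 1.37, 1.85 and 2.45 TPM at Puberty, with a log2 fold change of -2.71 ± 0.62 (SE; edgeR adjusted p = 0.00923). TEKT1, a tektin of the doublet wall that was tested only through its Day 3 reads, had 4.24, 7.80 and 4.71 TPM at Day 3 and 0.42 to 0.61 TPM at Puberty. CFAP53, which also lies inside the doublet, overlapped between the stages. It had 3.98, 3.16 and 2.65 TPM at Day 3 and 2.60, 2.64 and 4.80 TPM at Puberty, and 1.50 to 2.48 TPM in the later libraries. CFAP70 had 3.99, 6.05 and 2.83 TPM at Day 3 and 0.93 to 1.93 TPM at Puberty, without overlap and without passing the test. TEKT2 was not tested, with 1.55, 4.82 and 0.34 TPM at Day 3 and 0.22 to 0.36 TPM at Puberty.

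Of the remaining genes, ZBBX, a zinc finger protein found in ciliated cells and tested only through its Day 3 reads, fell from 1.66, 2.10 and 0.80 TPM to 0.28, 0.32 and 0.17 TPM. Its log2 fold change was -2.22 ± 0.72 (SE; edgeR adjusted p = 0.0418), and the call was lost in 7 of 12 fits that left out a library. TPPP3, at chr6:28045433-28051141 on the minus strand, was the most abundant of the 37 genes at every stage. TPPP3 had 55.6, 80.5 and 39.8 TPM at Day 3, 31.99, 30.9 and 49.0 TPM at Puberty, 30.5, 26.6 and 47.3 TPM at Year 1 and 46.1, 40.2 and 126 TPM in Pregnancy. Its stages overlapped, and its log2 fold change from Day 3 to Puberty was -0.33 ± 0.45 (SE; edgeR adjusted p = 0.605). ARMC3, not tested, had 0.59, 1.90 and 0.09 TPM at Day 3 and at most 0.03 TPM in any later library.

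**Figure D3:**
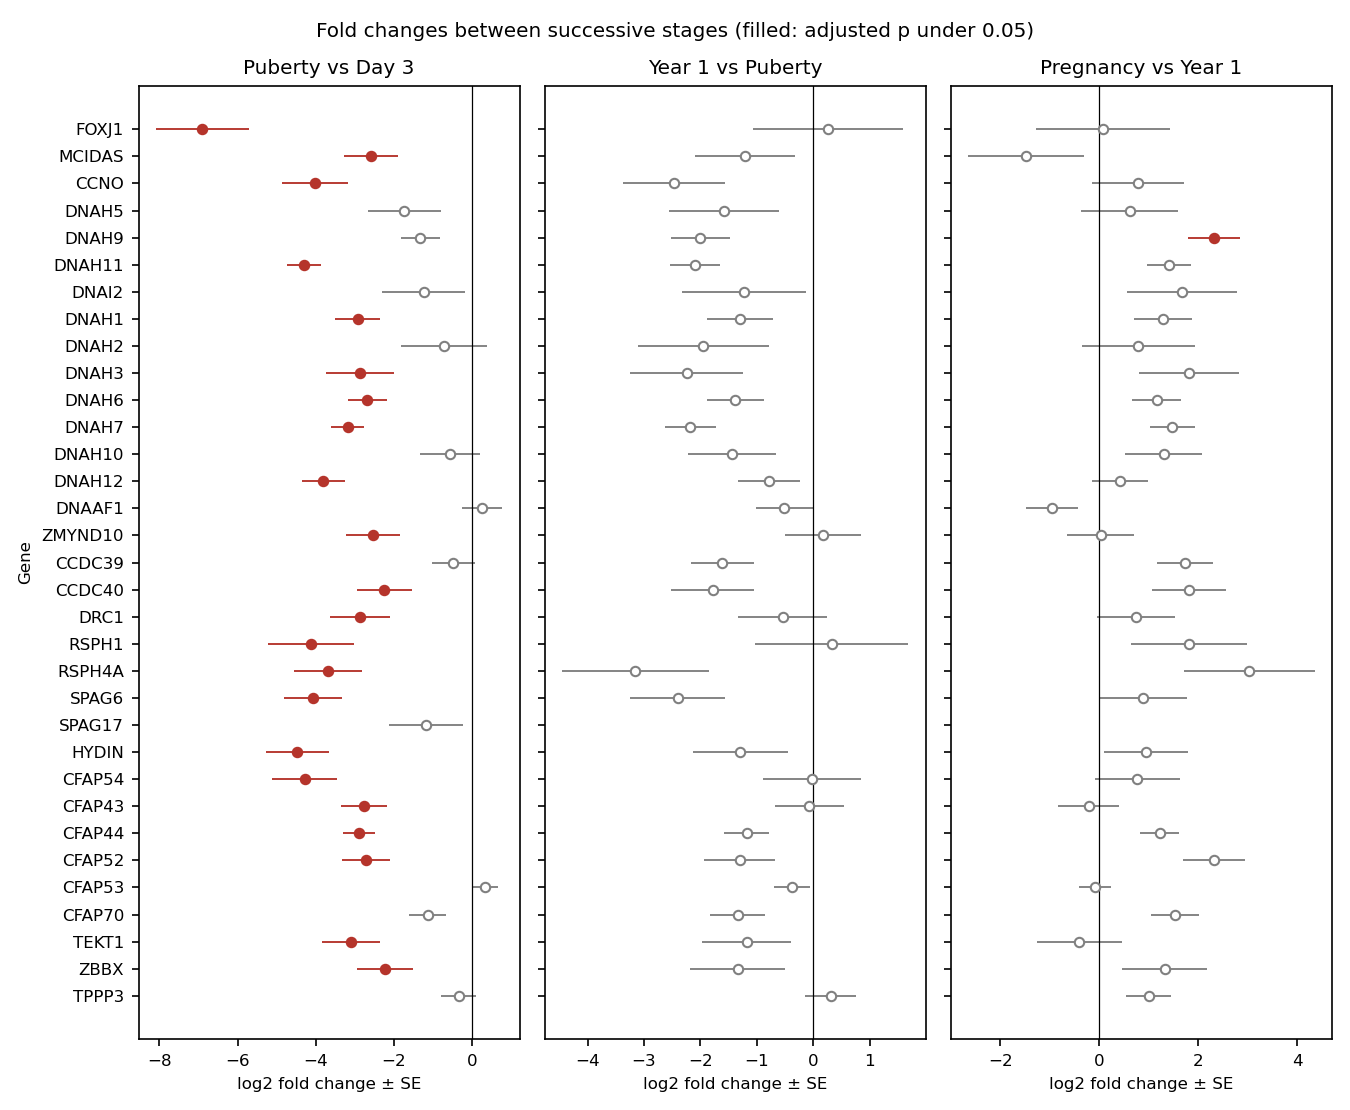
Fitted log2 fold change (points) with its standard error (bars) of the 33 tested motile cilia genes between successive stages; filled red points have an edgeR adjusted p under 0.05, and SPAG17 is left out of 2 panels because Year 1 held no read of it. Puberty against Day 3 has 22 filled points, all below 0, Year 1 against Puberty has none, and Pregnancy against Year 1 has 1, DNAH9.

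The 3 Day 3 libraries did not carry the motile cilia genes at equal levels. Replicate 2 had at least 2 times the TPM of replicate 3 for 23 of 37 genes (62.2%), while 4.2% of 15620 genes with a mean Day 3 count of at least 10 reached that ratio. The opposite ratio was reached by 1 of the 37 genes, MCIDAS, and by 2.57% of all genes. Replicate 1 lay between the others for 24 of 37 genes in the order 2, 1, 3 (64.9%), an order found in 17.1% of all genes. The 2 libraries and the direction were picked after their values had been seen, so these shares describe the libraries and test nothing.

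The genes divided by the size of this ratio. The widest spread was in DNAI1, with a ratio of 54.8, followed by ARMC3 with 21.1, TEKT2 with 14.2, FOXJ1 with 12.2 and SPAG17 with 11. RSPH4A had a ratio of 9.96, HYDIN of 9.04 and DRC1 of 7.49. Only 5 genes were higher in replicate 3, the regulators MCIDAS and CCNO and the heavy chains DNAH5, DNAH7 and DNAH10. CCNO had a ratio of 0.784, MCIDAS of 0.44, DNAH7 of 0.883, DNAH5 of 0.896 and DNAH10 of 0.958. The libraries were also close for some genes that fell: CFAP44 had a ratio of 1.03, DNAH12 of 1.33, DNAH11 of 1.35 and SPAG6 of 1.43. Both sets held genes that fell to Puberty: 13 of the 19 tested genes with a ratio of at least 2 were called, and 9 of the 14 tested genes with a smaller ratio. The 4 genes that were not tested all had a ratio of at least 2.

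Because 1 library was so often the highest, the Puberty comparison was repeated without each Day 3 library. Without replicate 2, 16 of 33 motile cilia genes tested fell, and 16.7% of all genes tested were then called in either direction. Without replicate 1 the number was 19 of 33 tested, where 19.5% of all genes were called. Without replicate 3 it was 23 of 37 tested, where 18.6% of all genes were called. The direction was downward for every call in these 3 fits. Of the 22 genes called, 15 were called in all 12 fits that left out a library. These were 4 of the 8 genes tested only through Day 3, FOXJ1 among them, and 11 of the other 25, CCNO, DNAH11, DNAH7, SPAG6 and HYDIN among them.

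**Figure D4:**
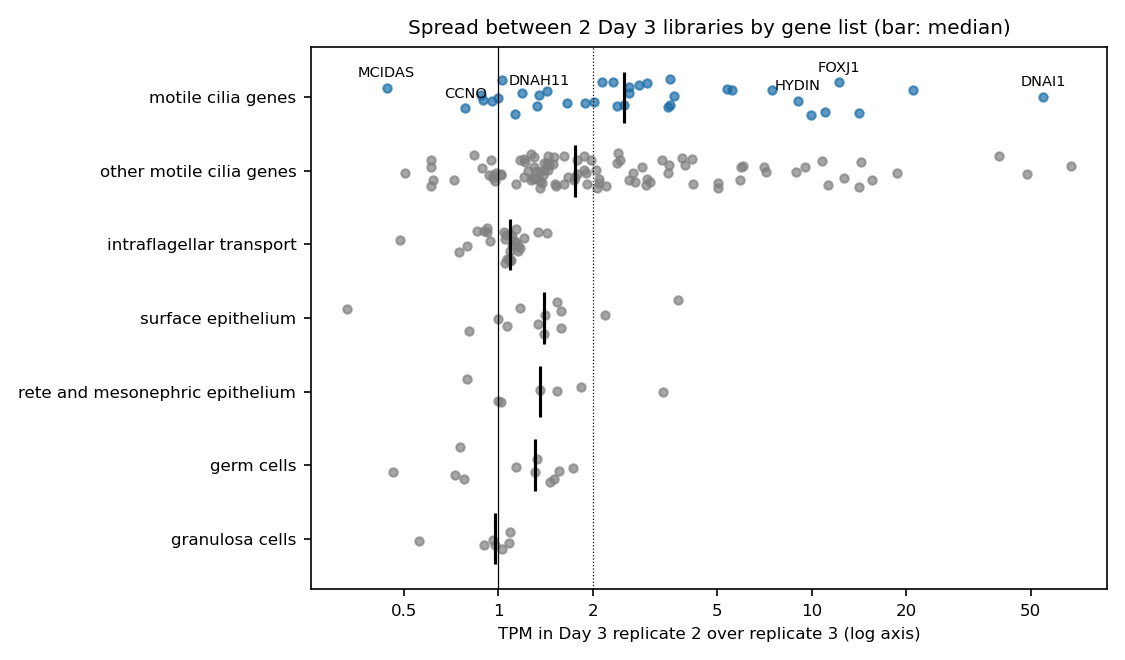
Ratio of the TPM in Day 3 replicate 2 to that in Day 3 replicate 3 (log axis) for each gene of 7 lists, 1 point per gene, with a bar at the list's median; the solid line marks equal levels and the dotted line a ratio of 2. The motile cilia genes have a median of 2.51 and reach 54.8, whereas no intraflagellar transport, germ cell or granulosa cell gene reaches 2. On the other side the lists are alike: the lowest ratio is 0.44 for the motile cilia genes, 0.486 for transport, 0.462 for germ cell and 0.558 for granulosa cell genes.

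The same ratio was looked up in other gene lists. Of 97 other motile cilia genes 41 had a ratio of at least 2, with a median of 1.76. Of 29 intraflagellar transport genes, which serve primary as well as motile cilia, none did, and the median was 1.09. The ratio was at least 2 for 2 of 13 surface epithelium markers (median 1.4), 1 of 7 rete and mesonephric epithelium markers (median 1.36), 1 of 5 oviduct secretory markers (median 1.84) and none of 11 germ cell markers (median 1.31). OVGP1, the main secreted protein of the oviduct, chosen here after its values were seen, was detected at every stage, with 4.43, 6.90 and 4.87 TPM at Day 3 and 7.39, 5.19 and 3.67 TPM at Puberty. Its Day 3 ratio was 1.42, against 3.83 for SLC34A2, 1.92 for KLF5, 1.84 for PAX2 and 0.981 for MSX1. PAX2, a marker of oviduct and mesonephric duct epithelium, had 0.90, 0.70 and 0.38 TPM at Day 3 and at most 0.02 TPM later. The labels do not say what tissue beside the ovary a piece held, and the part of the epithelia in the cilia genes' levels was not tested.

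From Puberty to Year 1 none of the 33 genes tested was called by edgeR, where 0.0255% of all genes tested were called, 0.0191% as lower and 0.00637% as higher. At an unadjusted p under 0.05 there were 14 of the 33 genes, all lower at Year 1. Of the 15699 genes tested, 4903 had such a p, 2212 of them lower at Year 1. DESeq2 called 10, all lower, where it called 21% of all genes. Limma with library weights called 19, of which 18 were lower, where it called 59.6% of all genes. The smallest adjusted p belonged to DNAH11 and DNAH7. The log2 fold change was -2.09 ± 0.44 (SE; edgeR adjusted p = 0.0624) for DNAH11 and -2.18 ± 0.45 (SE; edgeR adjusted p = 0.0624) for DNAH7. CCNO had -2.47 ± 0.90 (SE; edgeR adjusted p = 0.103) and SPAG6 -2.40 ± 0.84 (SE; edgeR adjusted p = 0.0959).

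Year 1 replicate 1 stood apart from its stage mates. It was above both others for 26 of the 35 motile cilia genes detected at Year 1 (74.3%), and 56.3% of all genes detected there did the same. DNAI2, for example, had 1.50 TPM in replicate 1 and 0.04 TPM in each of the others, and CCDC39 had 1.37, 0.18 and 0.26 TPM. Without that library, 16 of 37 motile cilia genes tested were called lower at Year 1 than at Puberty and none higher. In that fit 38.3% of all genes tested were called. Without Pregnancy replicate 3 the number was 4 of 37 tested, with 16.7% of all genes called, and without both libraries it was 19 of 37, with 51.6% of all genes called. The shares of all genes count calls in either direction, and shares called lower were not set beside these counts. Against the shares in either direction, the share of the motile cilia genes was larger without Year 1 replicate 1. It was no larger in the other 2 fits. The summed level of the 6 luteal and steroidogenic genes moved the other way. It was 731 TPM in Year 1 replicate 1 and 21025 and 18547 TPM in replicates 2 and 3. Its part in the cilia genes' values was not tested.

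SPAG17 and ARMC3 had no read in any Year 1 library. Taking 3 counts over the stage as the floor, SPAG17 was at least 7.46-fold lower at Year 1 than at Puberty and at least 16.9-fold lower than at Day 3. ARMC3 was at least 20.3-fold lower at Year 1 than at Day 3. These floors cover counting error only.

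From Year 1 to Pregnancy 1 of the 33 genes tested rose and none fell, where 1.34% of all genes tested rose, 1.62% fell and 2.96% changed in either direction. The gene was DNAH9, which is named because of this result. DNAH9 had 0.53, 0.29 and 0.17 TPM at Year 1 and 2.60, 2.11 and 0.70 TPM in Pregnancy, without overlap. The log2 fold change was 2.32 ± 0.52 (SE; edgeR adjusted p = 0.0468), just inside the threshold. No gene was called with upper-quartile scaling, without the count filter or with only the 2 stages in the fit. Unadjusted p-values under 0.05 were found for 12 of the 33 genes, none of them lower in Pregnancy. Of the 15699 genes tested, 4384 had such a p, 2164 of them lower in Pregnancy. Without Year 1 replicate 1, 12 of 37 genes were called higher, where 30.6% of all genes were called in either direction. Without Pregnancy replicate 3 there were 3 of 37, where 18.3% of all genes were called. Leaving out any other single library left no gene called, DNAH9 included.

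Pregnancy replicate 3 was below both its stage mates for 21 of 37 genes (56.8%; 47.9% of all genes detected) and above both for 9 (24.3%; 34.3% of all genes). The 9 were FOXJ1, DNAH11, DNAH12, RSPH1, CFAP43, CFAP52, CFAP53, ZBBX and TPPP3. DNAH10 had 3.65 and 3.34 TPM in the other Pregnancy libraries and 0.80 TPM in this one, while CFAP52 had 2.06 and 2.17 TPM there and 4.88 TPM here. The library thus did not move the motile cilia genes in a single direction.

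Between Puberty and Pregnancy no motile cilia gene was called by edgeR, DESeq2 or limma, and 0% of all genes tested were called by edgeR. At an unadjusted p under 0.05 there were 3 of the 33 genes, 2 of them lower in Pregnancy. Of the 15699 genes tested, 1156 had such a p, 481 of them lower in Pregnancy. Against Day 3, 27 of 33 genes were lower at Year 1 (24% of all genes tested were lower) and 21 of 33 were lower in Pregnancy (18.1% of all genes tested were lower). Of the 8 genes tested only through Day 3, all 8 were lower at Year 1 and 6 in Pregnancy; of the other 25, 19 and 15 were. None was higher in either comparison in any fit run. Without Year 1 replicate 1 the number lower at Year 1 was 33 of 37 tested. Without Pregnancy replicate 3 the number lower in Pregnancy was 19 of 37 tested. The shares of all genes called lower in these fits were not set beside these counts. Such shares also change when a library is left out. For another comparison, Day 3 to Puberty, 28.7% of all genes were called in the main fit and 38.1% without Year 1 replicate 1. Whether the larger number at Year 1 is particular to the motile cilia genes was not tested. The Year 1 and Pregnancy comparisons with Day 3 share their Day 3 libraries with the Puberty comparison. DNAH9, which was not called at Puberty or in Pregnancy, fell from Day 3 to Year 1 with a log2 fold change of -3.32 ± 0.54 (SE; edgeR adjusted p = 0.001). In the authors' deposited table, at a q-value under 0.05, 30 of the 37 genes were lower at Puberty than at Day 3, 31 at Year 1 and 26 in Pregnancy, and none was higher. The share of all genes under that q-value in either direction was 45.9%, 46.4% and 39.1%. The authors' deposited table also had 4 of the 37 genes lower at Year 1 than at Puberty (11% of all genes changed) and 2 higher in Pregnancy than at Year 1 (4.37% of all genes changed).

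Genes with a related function that were not on the list followed in part. Of 97 other motile cilia genes, 84 were tested, and from Day 3 to Puberty 43 fell and none rose. Of all genes tested, 17.2% fell and 11.5% rose. Their median log2 fold change was -1.56. Genes among them tested only through their Day 3 reads, which can hardly do other than differ, were not counted apart. DEUP1, which builds the deuterosomes on which ciliated cells multiply their centrioles, had 58.9, 67.5 and 93.2 TPM at Day 3 and 4.59, 4.86 and 5.93 TPM at Puberty. Its log2 fold change was -3.51 ± 0.50 (SE; edgeR adjusted p = 0.0011). CFAP47 fell with a log2 fold change of -4.30 ± 0.74 (SE; edgeR adjusted p = 0.0026) and VWA3A with -4.46 ± 0.68 (SE; edgeR adjusted p = 0.00156). The most abundant genes of 3 groups were not called: DYNLRB2 had -0.63 ± 0.49 (SE; edgeR adjusted p = 0.352), GAS8 -0.16 ± 0.34 (SE; edgeR adjusted p = 0.739) and STOML3 0.27 ± 0.34 (SE; edgeR adjusted p = 0.573). By group, 12 of 17 other doublet-associated genes fell, 11 of 19 other ciliated cell genes, 8 of 19 other nexin, spoke and central pair genes, 6 of 13 other dynein and docking genes, 5 of 9 other regulators and 1 of 7 other assembly factors. That assembly factor was LRRC6. C13H21orf59, the most abundant one, had 70.8, 72.8 and 63.8 TPM at Day 3 and 66.0, 71.1 and 46.9 TPM at Puberty.

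Few genes of intraflagellar transport were called. Of 29 tested, 1 fell and 1 rose from Day 3 to Puberty, where 17.2% of all genes tested fell and 11.5% rose. Their median log2 fold change was 0.17. The gene that fell was KIF3A, a subunit of the motor that carries cargo to the ciliary tip, from 39.0, 42.6 and 39.6 TPM to 13.03, 12.1 and 10.7 TPM. Its log2 fold change was -1.40 ± 0.18 (SE; edgeR adjusted p = 0.00068). IFT57 had 110, 116 and 123.4 TPM at Day 3 and 93.7, 121 and 105 TPM at Puberty. From Day 3 to Year 1, 8 of these 29 genes fell and 4 rose, where 24% of all genes tested fell and 24% rose. No test compared the transport genes with the motile cilia genes.

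**Figure D5:**
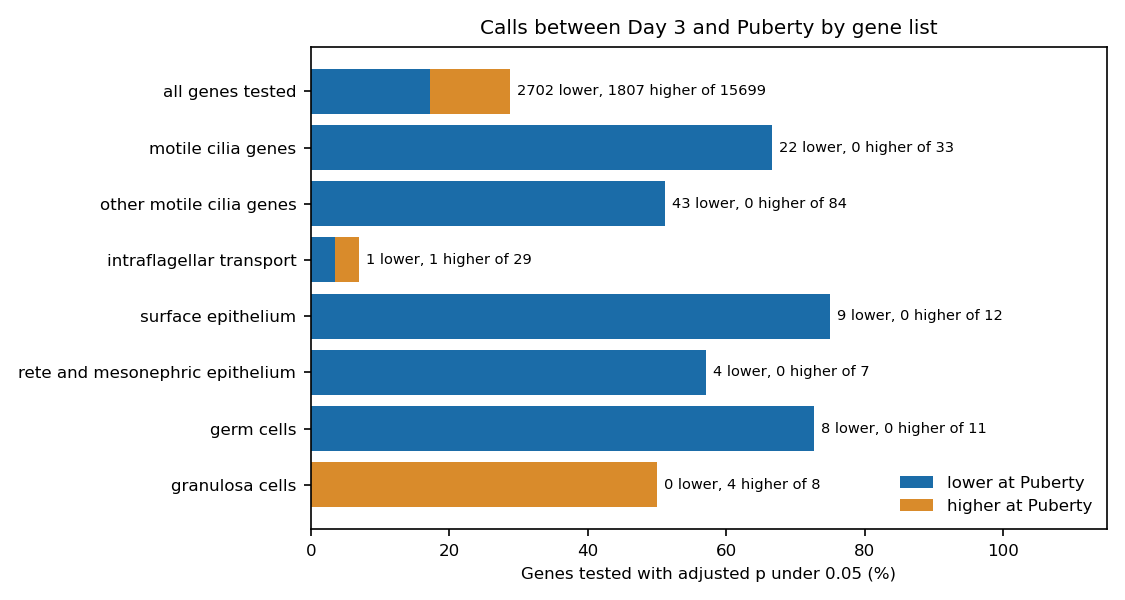
Share of tested genes in each list (bars, in %) with an edgeR adjusted p under 0.05 between Day 3 and Puberty, split into lower and higher at Puberty; numbers beside the bars are counts. The motile cilia genes have 22 lower and 0 higher of 33, and intraflagellar transport 1 of each of 29. Several lists of epithelial and germ cell markers also have a majority lower, and the surface and rete lists share KRT8 and KRT19.

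Other cell type markers moved with the cilia genes between Day 3 and Puberty. Lower at Puberty were 9 of 12 surface epithelium markers (median log2 fold change -2.53), 4 of 7 rete and mesonephric epithelium markers, 2 of 5 oviduct secretory markers and 8 of 11 germ cell markers (median -3.97), and none of these 4 lists had a gene that rose. For comparison, 17.2% of all genes tested were lower at Puberty and 11.5% were higher. Genes tested only through their Day 3 reads were not counted apart in the marker lists. KRT8 and KRT19 are on both the surface and the rete lists, and PAX2 is on both the rete and the oviduct lists. Each of these genes fell and is counted in both of its lists, so the lists overlap in their calls. KRT8, a keratin of simple epithelia, had 376, 240 and 239 TPM at Day 3 and 33.2, 44.3 and 24.3 TPM at Puberty. LGR5, a marker of the surface epithelium, fell with a log2 fold change of -5.56 ± 0.78 (SE; edgeR adjusted p = 0.00104), and DDX4, a germ cell helicase, with -4.03 ± 0.22 (SE; edgeR adjusted p = 3.98e-05). The summed level of the 13 surface epithelium markers was 595 to 839 TPM at Day 3 and 89.1 to 148.6 TPM at Puberty. That of the 7 rete and mesonephric markers was 347 to 523 TPM and 58.9 to 72.4 TPM. KRT8 and KRT19 are in both sums, and KRT8 made up most of the rete sum at Day 3. Granulosa cell genes went the other way, with 4 of 8 higher at Puberty and none lower, as did 3 of 6 luteal and steroidogenic genes. The part of these cell types in the fall of the motile cilia genes was not tested.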

How the data were processed

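Polyadenylated mRNA of 12 pig ovary pieces was sequenced, 3 sows per stage. Per the submitters' processing notes, the tools were Bowtie2 2.3.4.3, RSEM 1.3.1 and DESeq2 1.4.5, with the build Sscrofa11.1. The authors deposited RSEM's expected counts, which can be fractional, beside the TPM of each gene. Between 92.956% and 94.678% of a library's expected counts were whole (tolerance 1e-06). The authors' deposited table also holds log2 fold changes and q-values for each pair of stages. It has 40 other columns for single libraries or stage averages, which were not used. The 12 small RNA libraries were not analysed here.

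Expected counts were rounded. Genes were kept with filterByExpr (minimum count 10) and scaled with TMM (factors 0.752 to 1.25), and edgeR 4.0.16 (R 4.3.3) fitted 1 term per stage to all 12 libraries. P-values were adjusted over 15699 genes by the Benjamini-Hochberg method, with a threshold of 0.05. The common biological coefficient of variation was 0.401. TPM values were described and not tested. Alternatives were RLE and upper-quartile scaling, other count filters, DESeq2 1.42.0, limma 3.58.1 (voom with library weights), fits of 2 stages, a replicate block and fits without single libraries. The fitting code was tested on simulated data.

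The genes, the other lists and the choice of alternatives were made with earlier results of these data known. The genes given with full statistics are the 3 regulators and, in each role or list, the gene with the lowest adjusted p over all stages and the one with the highest mean TPM. A gene that this rule names among the other motile cilia genes is not reported here. HYDIN, CFAP54, DRC1, DNAH9 and other genes are given mainly by their levels. Libraries of a stage differed by at least 18 times the sampling noise (chi-square per degree of freedom), so none was counted as a repeat. Replicate numbers did not pair the sows: deviations of same-numbered libraries from their stage means correlated between -0.420 and 0.421, and 5 of 18 pairs passed 0.1. Whether the counting used strand is not given in the sources used here, so antisense transcripts cannot be told apart, and reads shared by dynein heavy chain relatives were divided by the authors' counting. Positions of 34 of the 37 genes were identical in the RefSeq gene table; FOXJ1, DNAH2 and CCDC40 differed. A cilium or axoneme annotation term is attached to 33 of the 37 genes and to 3.24% of all genes.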

Additional observations from a re-analysis of the deposited data

How the results depend on the processing

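The fall from Day 3 to Puberty kept its direction in every fit run. With a minimum count of 50, where fewer genes were tested, 14 of 24 motile cilia genes and 27.3% of all genes were called. The number ran from 15 to 26 over the fits without 1 library. It was 15 of 37 without Puberty replicate 2, where 18.3% of all genes were called. It was 26 of 37 without Year 1 replicate 1, where 38.1% of all genes were called. The 2 later steps depended on the fit. For Puberty to Year 1, DESeq2 called 10 genes, limma with library weights 19, and the fit without both Year 1 replicate 1 and Pregnancy replicate 3 called 19, where 21%, 59.6% and 51.6% of all genes were called. Over the fits without 1 library the number ran from 0 to 16. For Year 1 to Pregnancy, no gene (0) was called with upper-quartile scaling, without the count filter, or in a fit of only the 2 stages. DESeq2 called 8, limma 15, and the fit without both libraries 15, where 18.4%, 56.2% and 50% of all genes were called. The number ran from 0 to 12 over the fits without 1 library. Upper-quartile scaling moved the median log2 fold change of all genes to -0.17 for Puberty to Year 1 and 0.14 for Year 1 to Pregnancy.

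With the replicate number as a block, 19 of 33 genes were called lower from Day 3 to Puberty, where 25.6% of all genes were called. Between Year 1 and Pregnancy 0 were called. The numbers do not pair the sows, so this says nothing of a paired effect.

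Small fitted changes turned in sign. For Puberty to Year 1, FOXJ1 had a log2 fold change of -1.49 with limma and -1.42 without both libraries, ZMYND10 had -0.67 and -0.78, and without single libraries the values ran from -1.40 to 1.21 for FOXJ1, from -0.76 to 0.57 for ZMYND10 and from -0.94 to 0.95 for RSPH1. For Year 1 to Pregnancy, RSPH1 had -0.36 with limma and -0.04 without both libraries, and TPPP3 had -0.01 with limma. Without single libraries FOXJ1 ran from -0.49 to 1.74, ZMYND10 from -0.35 to 0.99 and RSPH1 from 0.56 to 3.10, and ZMYND10 had 1.04 without both libraries. None of the changes that turned was called, and the cause of the changes was not tested. Depth limits FOXJ1, MCIDAS, RSPH1 and RSPH4A after Day 3, where each had few reads per library.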

Other observations

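Among all genes with a mean Day 3 count of at least 10 and reads in both libraries, 134 had at least 5 times the TPM in Day 3 replicate 2 as in replicate 3. Of these, 18.7% carry a cilium annotation term, as do 3.58% of the 15607 genes compared. They include 10 of the motile cilia genes above and 18 other motile cilia genes. Further genes high on that ranking, with a mean count of at least 50, included TTLL10, a tubulin glycylase relative (0.94, 2.24 and 0.02 TPM). Others were NME9 (4.51, 12.1 and 0.42 TPM) and CFAP65 (1.21, 3.53 and 0.15 TPM). TP73, a regulator of multiciliated cells and 1 of the 18 other motile cilia genes, had 3.19, 5.64 and 0.52 TPM. The term is attached to CFAP65 but not to TTLL10, NME9 or TP73. SLPI, a secreted protease inhibitor (65.9, 82.2 and 3.04 TPM), and VNN1 (0.73, 39.5 and 0.78 TPM) were also high on the ranking, without the term. These genes were picked from the ranking after it was seen.

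Regulators of multiciliated cells did not all share one order at Day 3. Of 10 other regulators, 7 were higher in replicate 2 than in replicate 3, among them CCDC78 with a ratio of 11.3, TP73 with 10.8 and MYB with 2.98. The other 3 were higher in replicate 3: GMNC had 0.33, 0.31 and 0.50 TPM in the 3 libraries, DEUP1 58.9, 67.5 and 93.2 TPM, and CDC20B had a ratio of 0.889. Of 11 germ cell markers, 7 were higher in replicate 2 and 4 in replicate 3. These orders rest on 3 libraries and were noticed after the values were seen.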
